A study of Homo sapiens with 6 samples.

Results

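Keratin and cell junction genes were examined in MDA-MB-468 cells, an established line of triple-negative basal-like breast cancer, after knockdown of the long non-coding RNA NRAD1 (LINC00284). The genes were picked out by their symbols, and the list was chosen with earlier results of these data known. It held numbered keratins, claudins, desmogleins, desmocollins, desmoplakin, plakophilins, plakoglobin, periplakin and envoplakin. It also held the TJP (zonula occludens) scaffolds, occludin, cingulins, MARVEL domain proteins, EPCAM, classical cadherins and connexins. These symbols covered 95 of the 14884 genes named on the array, each taken as its brightest transcript cluster (the group of probes that reads 1 gene). They comprised 26 type I keratins, 21 type II keratins, 24 claudins, 8 scaffold and other membrane proteins of the tight junction, 7 desmosomal cadherins, 8 desmosomal plaque proteins and plakins, and EPCAM. The groups were 3 samples treated for 48 h with 15 nM GapmeR#4, an antisense oligonucleotide against NRAD1, and 3 samples treated for the same time with 15 nM control GapmeR. Both groups received the same transfection reagent, no other treatment is labelled, and neither another NRAD1 GapmeR nor untransfected cells were analysed here. Replicates were labelled biological, but whether they came from separate cultures was not stated, so the tests set the change against the spread among these 6 arrays only, which may be technical.

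Keratins are the intermediate filament proteins of epithelial cells, and an acidic type I keratin always pairs with a basic type II keratin to form a filament. Desmosomes anchor these filaments at the membrane: desmogleins and desmocollins bind the neighbouring cell, and plakoglobin, plakophilins and desmoplakin join them to keratin. Claudins and occludin seal the space between cells at the tight junction, where the zonula occludens proteins and cingulin tie them to actin. Expression of these families is commonly used to describe the epithelial state of breast cancer cells.

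Of the protein-coding genes that match the chosen symbols in RefSeq, 27 of 122 had no named transcript cluster and were not analysed here. All 14 connexins were among them, so gap junction channels of that family could not be described, and so were the classical cadherins CDH1, CDH2 and CDH3 and several keratins, such as KRT6A, KRT6B and KRT17. The epithelial label of the cells was checked against marker genes. Of 8 epithelial markers 7 were named, and the signals of all 7 lay above the median of all transcript clusters. So did 10334 of all 14884 named genes, so a signal above that median does not by itself mark a cell type. The median was also exceeded by 3 of 4 luminal hormone receptor markers named, 1 of 3 endothelial markers (CLDN5) and 2 of 3 melanocyte and neural markers (PMEL and GFAP). Of 8 fibroblast and mesenchymal markers 3 were named. DCN and LUM averaged 1.57 and 2.39 on the log2 scale with GapmeR#4 and 1.44 and 2.17 with control GapmeR. Both lay below the array medians of 3.96 to 4.01. The third, VIM (vimentin), lay above those medians, at 6.96 with GapmeR#4 and 6.71 with control GapmeR. The 1 blood marker named, CD14, of 6 listed, averaged 4.07 with GapmeR#4 and 3.70 with control GapmeR, close to the array medians, with separate groups and no call (limma, adjusted p = 0.233). In such bulk RNA, fewer cells of a kind and less RNA per cell cannot be told apart.

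NRAD1 itself had log2 signals of 2.96, 2.99 and 2.90 on the GapmeR#4 arrays and of 3.43, 3.46 and 4.01 on the control GapmeR arrays. The groups did not overlap and differed by -0.69 ± 0.17 (SE, n = 3 each) on the log2 scale. This change missed the threshold over all transcript clusters (limma, adjusted p = 0.0908), and an exact permutation test of the labels gave p = 0.1, 2-sided, the smallest that 3 against 3 arrays allow. Both group means, 2.95 with GapmeR#4 and 3.64 with control GapmeR, lay below the array medians. Correlations of all signals were 0.988 to 0.990 within GapmeR#4 and control GapmeR groups and 0.982 to 0.985 between them.

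Keratin and junction genes as a whole were called about as often as other genes. At an adjusted p under 0.05 (limma, all 53617 transcript clusters), 3 of the 95 genes (3.16%) fell after NRAD1 knockdown, namely CLDN4, DSC3 and PKP4, against 2.56% of all named genes. In the other direction 1 gene (1.05%), KRT75, rose, against 1.49% of all named genes. The median log2 change was -0.02 over the 95 genes and 0.003 over all named genes, with 53 changes below 0 and 42 above. A count of genes whose 3 GapmeR#4 signals all lay below the 3 control GapmeR signals gave 17 of 95 (17.9%), against 16.8% of all named genes. Genes with all 3 GapmeR#4 signals above the control GapmeR signals numbered 5 (5.26%), against 15.5% of all named genes. By the study's cutoffs, a change of more than 1.7-fold at an unadjusted p of 0.05, CLDN4 and DSC3 were lower (2.11%, against 1.8% of all named genes), and KRT75 and DSC1 were higher (2.11%, against 0.947%). The plot of changes by class shows no gap between called and other genes, since CLDN7 and CLDN3 had changes about as large as that of PKP4.

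**Figure D1:**
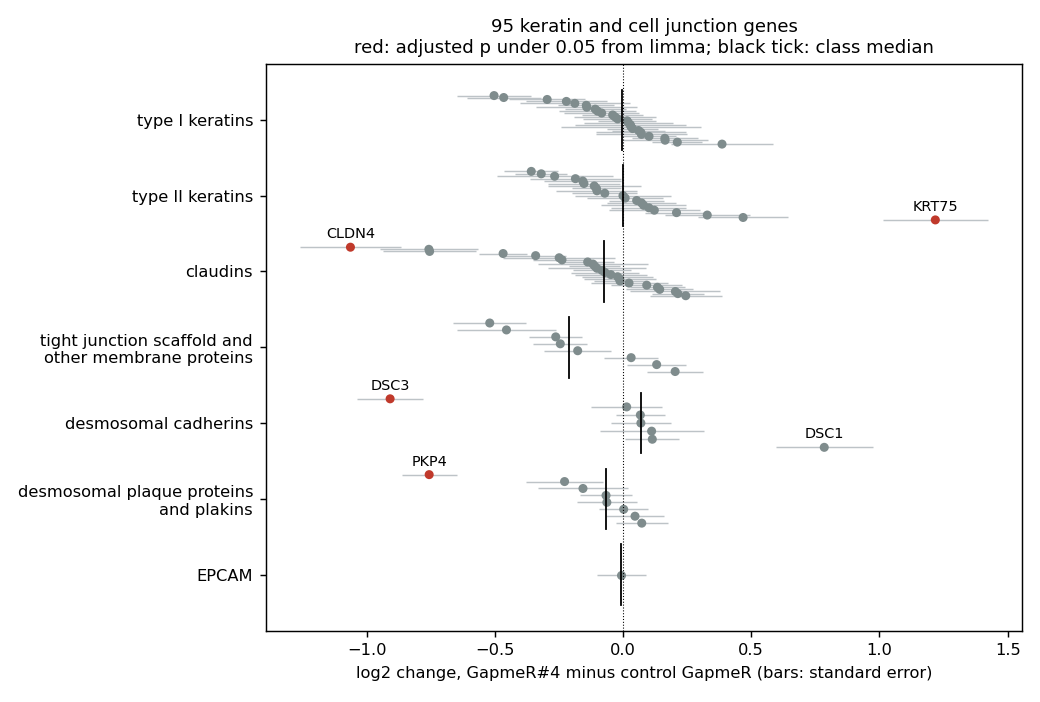
Each point is 1 of the 95 genes, placed by its log2 change (GapmeR#4 minus control GapmeR, x axis) within its class (y axis), with the standard error as a bar, the class median as a black tick and genes with an adjusted p under 0.05 in red. CLDN4, DSC3 and PKP4, with the claudins CLDN7 and CLDN3 in grey beside them, lie to the left and KRT75 and DSC1 to the right, while class medians run between -0.21 and 0.07.

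Of the claudins, CLDN4 fell, and CLDN1, CLDN3, CLDN7, CLDN16 and CLDN23 had lower signals on all 3 GapmeR#4 arrays without passing the test. By the test 1 of 24 claudins thus fell, against 2.56% of all named genes. Separate lower groups were seen for 6 of the 24, against 16.8% of all named genes, and separate higher groups for 1, against 15.5%. CLDN4, a claudin of many simple epithelia that binds its neighbours across the cell border, had log2 signals of 5.27, 5.39 and 5.50 with GapmeR#4 and of 6.72, 6.62 and 6.001 with control GapmeR. Every GapmeR#4 signal lay below every control signal, by a change of -1.06 ± 0.20 (SE, n = 3 each), or 2.09-fold (limma, adjusted p = 0.0434). The lowest control signal, that of replicate 3, was nearest to the GapmeR#4 group, and with that array left out the adjusted p was 0.0314. With any other array left out it lay above 0.05 and reached 0.150 (limma).

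CLDN3, a close relative of CLDN4, showed signals of 7.54, 7.86 and 7.97 with GapmeR#4 and of 8.85, 8.51 and 8.28 with control GapmeR. The groups were separate, but each was spread over more than the gap between them, and the change of -0.75 ± 0.18 (SE) missed the threshold (limma, adjusted p = 0.0844). In RefSeq (GRCh38.p14), CLDN3 and CLDN4 are direct neighbours on chromosome 7, so both genes of this neighbouring pair had lower signals on all 3 GapmeR#4 arrays. Their start regions are given because the genes are adjacent and their signals were lower together. Each window holds 250 bases before and 50 bases after the annotated start, and capitals mark letters that match a searched motif. CLDN4 lies on the plus strand at chr7:73830746-73831045, with 2 matches to the AP-1 motif TGANTCA that begin 242 and 161 bases before the start. CLDN3 lies on the minus strand at chr7:73770221-73770520, with a single match to the E-box CACCTG (read as CAGGTG) 37 bases after it.
CLDN4: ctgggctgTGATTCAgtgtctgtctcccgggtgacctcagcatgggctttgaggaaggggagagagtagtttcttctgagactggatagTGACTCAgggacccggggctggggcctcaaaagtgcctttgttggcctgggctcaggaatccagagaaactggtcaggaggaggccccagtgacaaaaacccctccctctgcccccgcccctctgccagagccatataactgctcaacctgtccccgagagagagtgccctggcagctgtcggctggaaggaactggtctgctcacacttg
CLDN3: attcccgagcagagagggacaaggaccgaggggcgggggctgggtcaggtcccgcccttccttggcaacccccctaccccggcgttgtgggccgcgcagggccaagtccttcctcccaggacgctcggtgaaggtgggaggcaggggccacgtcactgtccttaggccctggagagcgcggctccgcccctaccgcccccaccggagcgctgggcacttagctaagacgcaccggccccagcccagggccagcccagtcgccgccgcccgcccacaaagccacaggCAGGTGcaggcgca

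In all, 4 motifs were searched on both strands, and no printed matches overlap. The E-box CACCTG was present in 28.4% of the 88 promoters of the 68 keratin and junction genes with an entry and in 20.6% of all 35116 RefSeq promoters. For the AP-1 motif TGANTCA the shares were 4.55% and 7.71%, and for the TATA box TATAAA they were 22.7% and 11.5%. The grainyhead motif AACNNGTT was found in 3.41% of the keratin and junction promoters and in 3.52% of all. Neither neighbouring claudin held a motif that the other held. A match describes letters in the window and not a binding site.

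CLDN7, which is found along the lateral membrane as well as in tight junctions and binds EPCAM, had signals of 8.65, 8.86 and 8.79 with GapmeR#4 and of 9.95, 9.39 and 9.23 with control GapmeR. Its change was -0.76 ± 0.19 (SE), or 1.69-fold, with no overlap of groups (limma, adjusted p = 0.0968). CLDN1, the claudin required for the skin barrier in mice, was the most even of the set. It had signals of 8.18, 8.04 and 8.14 with GapmeR#4 and of 8.57, 8.58 and 8.60 with control GapmeR, a change of -0.47 ± 0.09 (SE) that lay just above the threshold (limma, adjusted p = 0.0544). CLDN23 was the fifth claudin with an unadjusted p under 0.05, at -0.34 (limma, adjusted p = 0.208), and CLDN16, a claudin of kidney tubules and the neighbour of CLDN1, was the last of the 6 claudins with separate lower groups, at -0.24 (limma, adjusted p = 0.342). The other 18 claudins did not have separate lower groups. Of these, CLDN8, a claudin of kidney ducts and other tight epithelia, had signals of 8.996, 8.64 and 8.51 with GapmeR#4 and of 8.78, 8.73 and 8.78 with control GapmeR, and its change of -0.05 had a 95% interval of -0.38 to 0.28. The other direction was represented by CLDN19, a partner of CLDN16 in kidney, which was 0.21 higher with separate groups but missed the test (limma, adjusted p = 0.348).

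A negative change was seen for 17 of 24 claudins, against 7383 of all 14884 named genes, and the class median was -0.08. Of the 24, 18 lay above the median of all transcript clusters. Control GapmeR replicate 3 was the control array nearest to the GapmeR#4 group for CLDN3, CLDN4, CLDN7, CLDN16 and CLDN23, and for 12 of all 17 genes with separate lower groups. The plot of signals on each array shows this array as the lowest control point for the first 3 of these claudins. How often it was nearest among all named genes with separate lower groups was not counted. Over all signals, its correlations with the GapmeR#4 arrays were 0.9852 to 0.9853. They were 0.9842 to 0.9848 for control GapmeR replicate 2 and 0.9816 to 0.9831 for replicate 1. With 1 array left out, neither CLDN3 nor CLDN7 passed in any of the 6 omissions (limma, lowest adjusted p = 0.0829 for CLDN3 and 0.0864 for CLDN7).

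**Figure D2:**
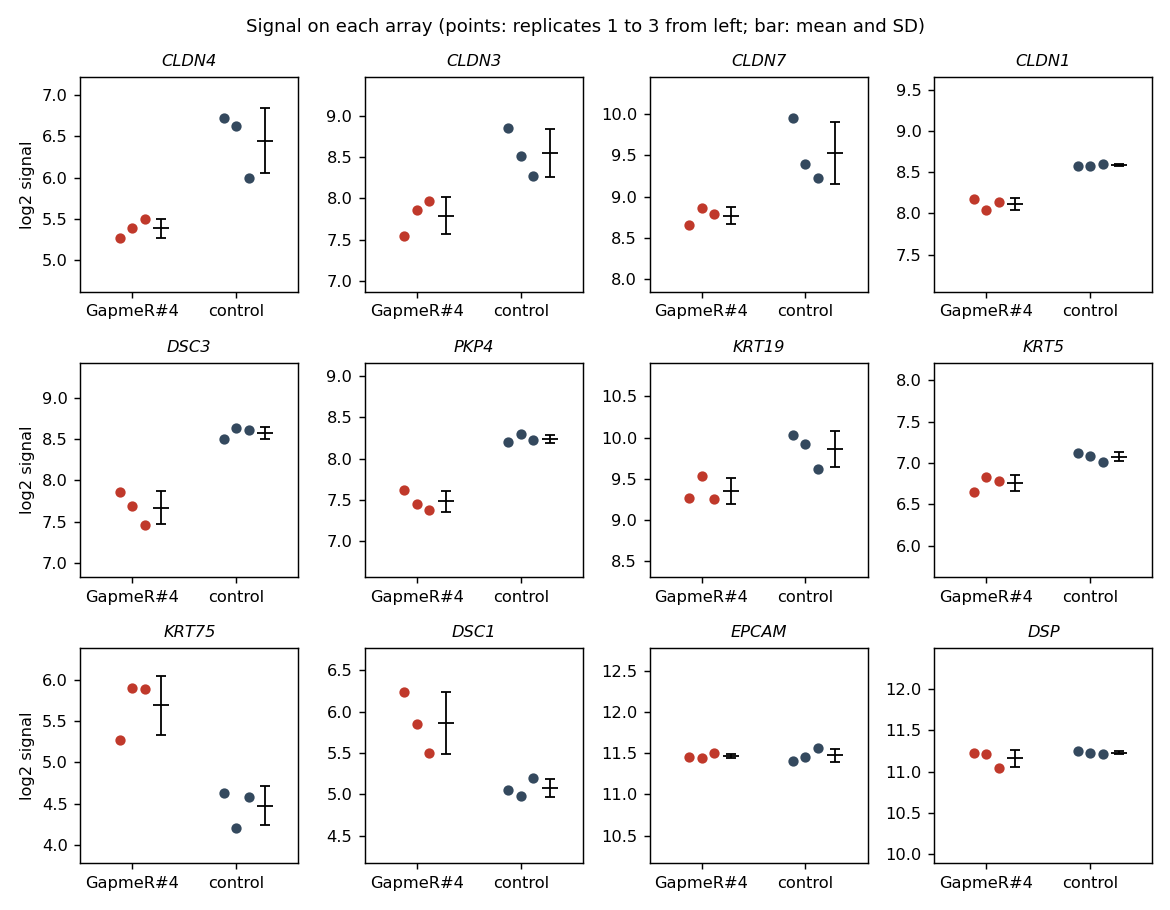
Log2 signal (y axis) of 12 genes on each array, GapmeR#4 in red on the left and control GapmeR in dark blue on the right, with replicates 1 to 3 from left to right within a group and bars for mean and SD. The groups are separate for all panels but EPCAM and DSP, and the y axes span the same width in log2 units.

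Among the other proteins of the tight junction, none of 8 passed the threshold, and 4 had separate lower groups, against 16.8% of all named genes. CGN (cingulin, which links the junction to actin and microtubules) had signals of 4.24, 4.74 and 4.46 with GapmeR#4 and of 4.97, 5.08 and 4.95 with control GapmeR, a change of -0.52 ± 0.14 (SE; limma, adjusted p = 0.119). TJP3, the ZO-3 scaffold, changed by -0.45 (limma, adjusted p = 0.294), or by -0.26 without GapmeR#4 replicate 3, and MARVELD2, the tricellulin of corners where cells meet, by -0.26 (limma, adjusted p = 0.263). MARVELD1, a related membrane protein, was at -0.24 (limma, adjusted p = 0.302). TJP1, the ZO-1 scaffold that binds claudins directly, went the other way with signals of 9.85, 9.85 and 9.84 with GapmeR#4 and of 9.48, 9.68 and 9.76 with control GapmeR, 0.20 higher with separate groups, and missed the test (limma, adjusted p = 0.417). OCLN (occludin), the neighbour of MARVELD2 on the chromosome, had a change of 0.03 with a 95% interval of -0.22 to 0.28, so a change of the size seen for CLDN4 lay outside its interval. The median of the 8 changes was -0.21.

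Within the desmosomal cadherins DSC3 fell, DSC1 had higher signals without passing the test, and the other 5 had overlapping groups. By the test 1 of 7 thus fell, against 2.56% of all named genes. Separate lower groups were seen for 1 of the 7, against 16.8% of all named genes, and separate higher groups for 1, against 15.5%. DSC3, the desmocollin of basal layers of stratified epithelia, had signals of 7.86, 7.69 and 7.46 with GapmeR#4 and of 8.50, 8.63 and 8.61 with control GapmeR. Its 2 groups were far apart for their spread, and it fell by 0.91 ± 0.13 (SE, n = 3 each) on the log2 scale, or 1.88-fold (limma, adjusted p = 0.0221). DSC1, the desmocollin of differentiated upper epidermis, had signals of 6.24, 5.85 and 5.50 with GapmeR#4 and of 5.06, 4.98 and 5.20 with control GapmeR. These groups were also separate, with GapmeR#4 on top and widely spread, and the change of 0.78 ± 0.19 (SE), or 1.72-fold, missed the threshold (limma, adjusted p = 0.0868). DSC2, the desmocollin present in all tissues with desmosomes, lies between them in the cluster. It had signals of 10.44, 10.38 and 10.26 with GapmeR#4 and of 10.23, 10.34 and 10.17 with control GapmeR, a change of 0.11 with a 95% interval of -0.13 to 0.36.

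Among the desmogleins, DSG2, the widely expressed member, had a change of 0.07 with a 95% interval of -0.15 to 0.29. DSG1, DSG3 and DSG4, desmogleins of epidermis and hair, lay below the median of all transcript clusters on average and had overlapping groups, with changes from 0.01 to 0.11. In RefSeq order the genes run DSC3, DSC2, DSC1, DSG1, DSG4, DSG3, DSG2, so the lower and the higher desmocollin flank one whose groups overlapped. The DSC3 start region, shown because the gene fell while its neighbour did not, lies on the minus strand at chr18:31042693-31042992 (GRCh38.p14) and held none of the 4 motifs.
DSC3: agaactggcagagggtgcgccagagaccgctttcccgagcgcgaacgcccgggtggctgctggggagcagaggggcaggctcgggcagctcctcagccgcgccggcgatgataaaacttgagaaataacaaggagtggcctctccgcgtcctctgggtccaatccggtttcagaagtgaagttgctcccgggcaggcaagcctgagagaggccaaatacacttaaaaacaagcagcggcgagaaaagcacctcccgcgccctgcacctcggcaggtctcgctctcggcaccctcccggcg

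**Figure D3:**
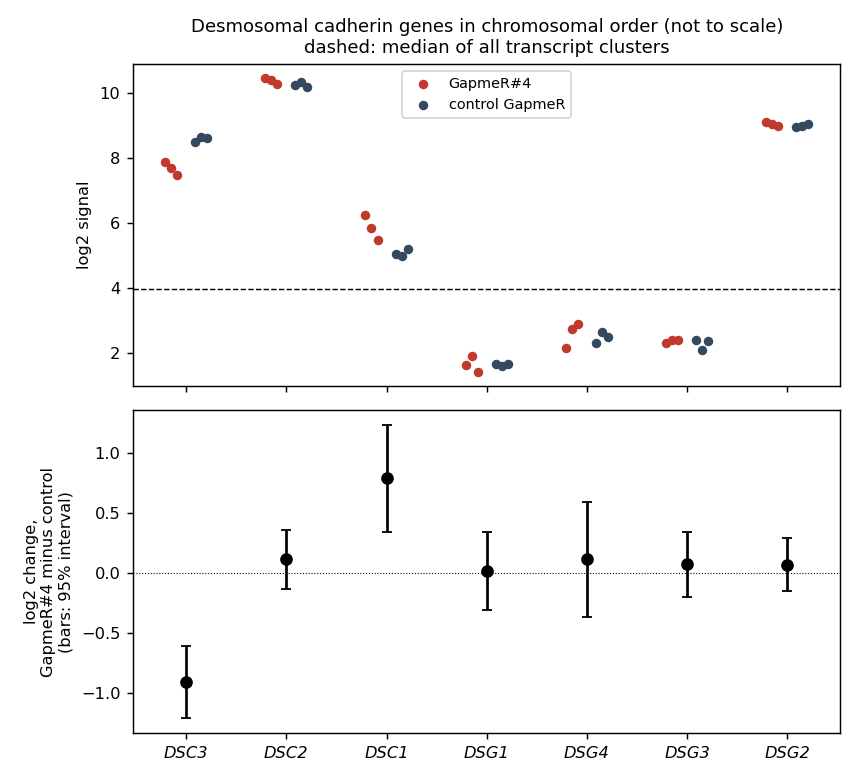
Top, log2 signals (y axis) of the 7 desmosomal cadherin genes in chromosomal order on 3 GapmeR#4 arrays (red) and 3 control GapmeR arrays (dark blue), where levels of different genes are not comparable on an array. Bottom, log2 change (GapmeR#4 minus control GapmeR) with its 95% interval, which lies below 0 for DSC3, above 0 for DSC1 and spans 0 for the other 5.

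On the cytoplasmic side of the desmosome, 1 of 8 genes fell and none rose, against 2.56% lower and 1.49% higher of all named genes. Their median change was -0.06. PKP4 (also called p0071), an armadillo protein of adherens junctions and desmosomes, had signals of 7.63, 7.45 and 7.38 with GapmeR#4 and of 8.20, 8.30 and 8.22 with control GapmeR. Both groups were tight and separate, and PKP4 fell by 0.76 ± 0.11 (SE, n = 3 each), or 1.69-fold (limma, adjusted p = 0.0222), just under the fold cutoff of the study. The other 7 genes did not pass. JUP (plakoglobin), which binds desmosomal cadherins, had signals of 8.26, 8.52 and 8.56 with GapmeR#4 and of 8.88, 8.72 and 8.43 with control GapmeR, with overlapping groups and a change of -0.23. DSP (desmoplakin), the link to keratin filaments, changed by -0.07 with a 95% interval of -0.30 to 0.17, and PKP2, the plakophilin of simple epithelia and heart, by 0.003 with an interval of -0.22 to 0.23. PKP3, a plakophilin of most epithelia, had a change of -0.16.

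The calls for DSC3 and PKP4 did not hold in most smaller sets of arrays. With 1 array left out, both passed only without GapmeR#4 replicate 1 (limma, adjusted p = 0.0405 and 0.0438), the array nearest to the controls for both genes, and reached 0.0964 and 0.101 otherwise. Over these omissions the change stayed between -1.005 and -0.80 for DSC3 and between -0.83 and -0.70 for PKP4.

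Separate lower groups were seen for 2 of 26 type I and 3 of 21 type II keratins, against 16.8% of all named genes. Separate higher groups were seen for 1 keratin of each type, against 15.5%. Signals of 14 type I and 10 type II keratins were not above the median of all transcript clusters. By the test no type I keratin passed and 1 type II keratin rose, against 1.49% of all named genes. Median changes were -0.003 for type I and -0.0001 for type II. KRT75, a type II keratin of the companion layer of the hair follicle, had signals of 5.28, 5.90 and 5.89 with GapmeR#4 and of 4.63, 4.20 and 4.59 with control GapmeR. Every GapmeR#4 signal was above every control signal, and KRT75 rose by 1.22 ± 0.21 (SE, n = 3 each), or 2.33-fold (limma, adjusted p = 0.0335). GapmeR#4 replicate 1 lay nearest to the controls. Without it the adjusted p was 0.0359, and with any other array left out it was above 0.05 and reached 0.119 (limma). Its start region, shown because KRT75 was the only gene of the 95 to rise, lies on the minus strand at chr12:52434322-52434621 (GRCh38.p14). It held CACCTG from the base before the start and CAGGTG 35 bases after it, both matches to the E-box.
KRT75: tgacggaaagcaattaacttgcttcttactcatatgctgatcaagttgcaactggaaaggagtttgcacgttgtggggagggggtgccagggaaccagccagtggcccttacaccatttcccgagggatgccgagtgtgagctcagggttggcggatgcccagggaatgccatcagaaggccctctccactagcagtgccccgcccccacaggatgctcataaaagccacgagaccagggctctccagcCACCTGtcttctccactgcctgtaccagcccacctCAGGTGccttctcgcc

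Of the other type II keratins, 3 had separate lower groups, against 16.8% of all named genes, and none passed. KRT5, the basal partner of KRT14 and a marker of basal-like tumors, had signals of 6.65, 6.83 and 6.79 with GapmeR#4 and of 7.12, 7.09 and 7.01 with control GapmeR, a change of -0.32 ± 0.10 (SE) with separate groups that missed the threshold (limma, adjusted p = 0.168). KRT4, a keratin of mucosal epithelia, changed by -0.36 (limma, adjusted p = 0.140), also with separate groups, as had the hair keratin KRT85 at -0.10. The type II keratins of simple epithelia did not separate. KRT8, the partner of KRT18, had a change of -0.16, KRT7, a keratin of glandular ducts, of -0.10, and KRT80, a keratin of many epithelia, of 0.008.

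Of the type I keratins, KRT19, a keratin of simple and ductal epithelia, had signals of 9.27, 9.53 and 9.26 with GapmeR#4 and of 10.04, 9.92 and 9.61 with control GapmeR. The groups were separate by less than their own ranges, and the change of -0.50 ± 0.15 (SE) missed the threshold (limma, adjusted p = 0.136). KRT10, a keratin of suprabasal epidermis, had signals of 9.23, 9.29 and 9.26 with GapmeR#4 and of 9.13, 9.05 and 8.97 with control GapmeR, 0.21 higher (limma, adjusted p = 0.332). KRT18 had overlapping groups, and both of its transcript clusters gave nearly the same change, -0.08 and -0.09, at unlike levels. The brighter one, used here, averaged 9.83 with GapmeR#4 and 9.92 with control GapmeR, and the other averaged 6.32 and 6.42. Which of them better reads KRT18 was not tested. KRT23, a keratin of glandular epithelia, had a change of 0.10. The basal-layer keratin KRT14 and the stress-induced KRT16 had changes of -0.11 and -0.04 with overlapping groups. KRT25, an inner root sheath keratin, had separate lower groups at -0.47 (limma, adjusted p = 0.159), but its signals, 2.29 to 2.62 with GapmeR#4 and 2.72 to 3.09 with control GapmeR, were below the median of all transcript clusters.

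The 13 hair keratins held no call, and 8 of them were not above that median. KRT14 and KRT16 are close paralogs of each other and of KRT17, KRT6C is nearly identical to KRT6A and KRT6B, and KRT18 and KRT8 have many processed pseudogenes, so probes of these genes may share signal. Of all 95 genes, 35 were not above the median of all transcript clusters and held no call, while the other 60 held all 4 calls and had a median change of -0.07. Among all named genes, 25 of the 4550 not above that median were called. Of the 10334 above it, 366 fell and 212 rose, and their median change was -0.013. EPCAM, the epithelial adhesion molecule that binds CLDN7, had signals of 11.46, 11.45 and 11.50 with GapmeR#4 and of 11.40, 11.46 and 11.56 with control GapmeR, a change of -0.01 with a 95% interval of -0.23 to 0.22.

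**Figure D4:**
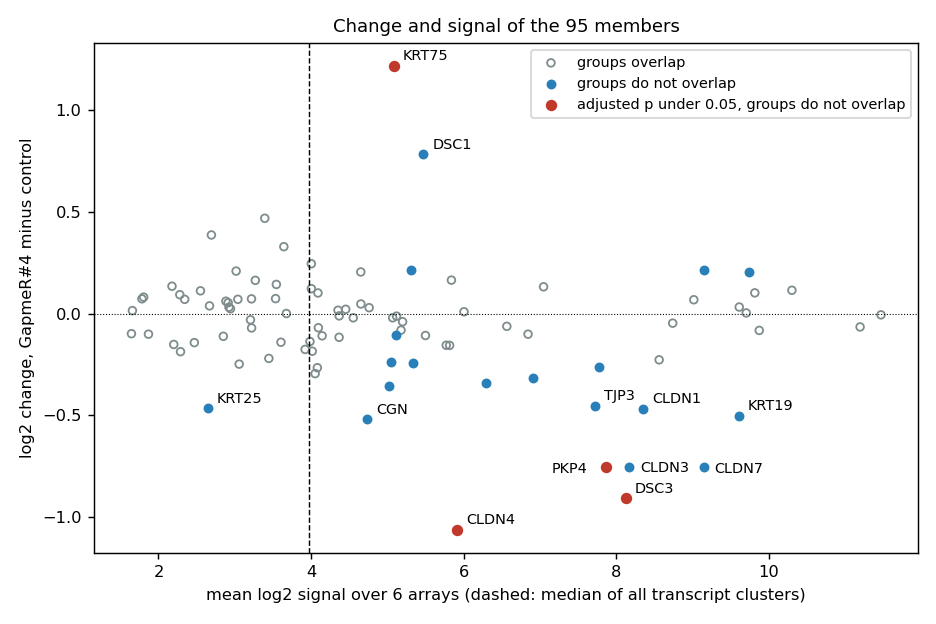
Log2 change (GapmeR#4 minus control GapmeR, y axis) against the mean log2 signal over 6 arrays (x axis) for the 95 genes, where red points passed an adjusted p of 0.05, blue points had separate groups and open circles had overlapping groups, and the dashed line is the median of all transcript clusters. Of the genes with separate groups, 17 lower and 5 higher, only KRT25 lies left of the dashed line.

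Summed signals of some marker lists differed between the groups beside these results. The 7 epithelial markers named, all of them among the 95 genes, summed to 4793 to 5239 on the linear scale with GapmeR#4 and to 5487 to 6066 with control GapmeR. They did not all fall: CLDN4, CLDN7 and KRT19 had separate lower groups, while EPCAM, KRT7, KRT8 and KRT18 had overlapping groups. EPCAM, the brightest, averaged 11.47 in both groups. The 4 basal-like markers named (KRT5, KRT14, KRT16 and EGFR, of 10 listed) summed to 1285 to 1441 with GapmeR#4 and to 1624 to 1842 with control GapmeR, and none was called. That sum mostly reflects EGFR, by far the brightest of them. EGFR had log2 signals of 10.12, 10.25 and 10.28 with GapmeR#4 and of 10.66, 10.62 and 10.46 with control GapmeR. Its change was -0.36 (limma, adjusted p = 0.142). KRT5 had separate lower groups, while KRT14 and KRT16 had overlapping groups. The 4 luminal hormone receptor markers named, of 6 listed, summed to 410 to 453 with GapmeR#4 and to 371 to 391 with control GapmeR, and none was called. They did not move one way: GATA3, the brightest of them, was 0.31 higher with separate groups, and FOXA1 was 0.03 higher with overlapping groups. ESR1 had a change of -0.26 and PGR of -0.10, both with separate lower groups. The blood marker CD14 gave 15.5 to 18.7 with GapmeR#4 and 11.1 to 14.2 with control GapmeR, and the sums of the 3 fibroblast and mesenchymal markers, 123 to 148 with GapmeR#4 and 98.9 to 125 with control GapmeR, overlapped. Their part in the results was not tested.

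Genes of neighbouring structures were read from lists of other junction genes. Among 21 other tight junction and polarity genes, 3 fell and none rose, against 2.56% lower and 1.49% higher of all named genes. Their median change was -0.17, against 0.003 over all named genes. PATJ, a scaffold of the Crumbs polarity complex, had signals of 8.35, 8.09 and 7.92 with GapmeR#4 and of 9.08, 9.22 and 9.15 with control GapmeR, with separate groups and a change of -1.03 ± 0.13 (SE; limma, adjusted p = 0.0170). SYMPK, a polyadenylation factor also located at tight junctions, fell by 0.62 (limma, adjusted p = 0.0431), and ILDR1, a protein of tricellular junctions, fell by 0.59 (limma, adjusted p = 0.0342). Among 7 other adherens junction genes 1 fell and none rose, against 2.56% lower and 1.49% higher of all named genes. That gene, NECTIN2, a cell adhesion receptor, fell by 0.68 (limma, adjusted p = 0.0388), and VCL (vinculin) had a change of -0.43 (limma, adjusted p = 0.117). With 1 array left out, PATJ passed only without GapmeR#4 replicate 1 (limma, adjusted p = 0.0341), and the other 3 genes in none of the 6 omissions.

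At hemidesmosomes, DST (dystonin) and PLEC (plectin) link keratin to the membrane, and CD151 is a tetraspanin that associates with laminin-binding integrins. All 3 had separate lower groups, with changes of -0.38, -0.27 and -0.48, but none passed (limma, adjusted p = 0.133, 0.302 and 0.137). Of all named genes, 16.8% had separate lower groups. The 3 pannexins, channel proteins related in form to connexins, had overlapping groups, with changes of 0.11 for PANX1, 0.07 for PANX2 and -0.16 for PANX3. Of 8 other intermediate filament genes none was called. VIM (vimentin), the mesenchymal filament protein, had a change of 0.26 (limma, adjusted p = 0.378) and LMNB2, a nuclear lamin, of -0.24 (limma, adjusted p = 0.398).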

How the data were processed

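RNA was labelled for Affymetrix Human Gene 2.0 ST arrays, and the values deposited by the authors are log2 signals per transcript cluster. The submitters' processing notes name Affymetrix Expression Console, and the methods name Transcriptome Analysis Console. The software version, normalization and genome build were not given in the sources used here, and the signals were used as deposited, without rescaling, and precision is limited by having 6 arrays. Scanner files were not analysed here.

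Symbols came from the platform annotation (16098 of 53617 transcript clusters), which can be old, and the brightest transcript cluster by the mean of 6 arrays stood for a gene. Antisense names (2) were left out. The genes and lists were chosen with earlier results of these data known. All transcript clusters were fitted together with limma 3.58.1 in R 4.3.3 (2 groups, moderated variances, 2-sided, Benjamini-Hochberg over all), and the shares over named genes use 1 transcript cluster per gene. Intervals are limma's 95% intervals. The methods name a Student's test for comparisons of 2 groups and state no pairing, so no block was used. The script was tested on simulated data.

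Genes were named by a rule: NRAD1, every called gene, the 4 brightest and the 3 of smallest p in each class, and from each other list the called genes and the 2 of smallest p. Genes outside it (CLDN16, CLDN19, CLDN23, MARVELD1, DSG1, DSG3, DSG4, KRT14, KRT16, KRT85, PLEC, PANX2 and the markers) were named after their values were seen. Alternatives were the brighter 50% of transcript clusters, an intensity trend with robust prior, the methods' t-test, quantile normalization, median centring, array weights, the mean over transcript clusters, a replicate block, the study's cutoffs and each array left out. Sequences and gene order are from RefSeq (GRCh38.p14), matched by symbol.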

Additional observations from a re-analysis of the deposited data

How the results depend on the processing

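Of the keratin and junction genes, 3 fell and 1 rose by limma at an adjusted p under 0.05. In the brighter 50% of transcript clusters 6 fell (CLDN1, CLDN3 and CLDN7 added) and 2 rose (DSC1 added), and the median change of the 60 genes left was -0.068. Calls were also more frequent over all 26808 transcript clusters of that setting, of which 1466 fell and 1282 rose. With the intensity trend and robust prior 5 fell (CLDN1 and CLDN3 added), while 1273 transcript clusters fell and 1176 rose in all. The methods' t-test called 0 in either direction after adjustment, where it called 4 transcript clusters lower and 8 higher in all. By the study's cutoffs, taken with limma's unadjusted p, 2 rose (KRT75 and DSC1, 2.11%, against 0.947% of all named genes). With 1 array left out, 0 to 2 fell, 0 to 1 rose, and the median change was -0.057 to -0.013. Over all transcript clusters, where 760 fell and 614 rose, such omissions left 23 to 236 lower and 44 to 269 higher. Fewer arrays leave fewer degrees of freedom, and for the settings on all arrays the cause was not tested. Array weights and quantile normalization added CLDN1, with 1052 and 743 transcript clusters lower in all. Median centring and the mean over transcript clusters named the same 4 genes.

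Same-numbered samples did not deviate together (r of deviations -0.06, -0.005 and -0.02 for numbers 1, 2 and 3), so the numbers were not taken as pairs. With the replicate block 0 genes fell and 0 rose (KRT75 adjusted p = 0.0973, limma), and 35 transcript clusters fell and 55 rose in all.

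Changes near 0 turned sign under some settings. OCLN was -0.0065 with quantile normalization, and PKP2 was -0.034 with it and -0.0033 with median centring. With 1 array left out the change ranged from -0.19 to 0.031 for KRT18, -0.20 to 0.028 for KRT7, -0.12 to 0.14 for KRT80, -0.19 to 0.057 for CLDN8, -0.035 to 0.077 for OCLN, -0.022 to 0.051 for PKP2, -0.041 to 0.036 for EPCAM and -0.26 to 0.029 for PANX3. Without turning sign, TJP3 ranged from -0.56 to -0.26, JUP from -0.35 to -0.13 and PKP3 from -0.36 to -0.05. NRAD1 kept its direction in all settings run and passed in none (it was not among the brighter 50%).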

Other observations

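Genes of keratinocyte differentiation did not move together. Of 23 cornified envelope genes 1 fell and none rose, against 2.56% lower and 1.49% higher of all named genes. KLK7, a protease that cleaves desmosomal proteins of the upper epidermis, had signals of 5.76, 6.07 and 5.88 with GapmeR#4 and of 6.86, 6.62 and 6.69 with control GapmeR, with separate groups and a change of -0.82 ± 0.12 (SE; limma, adjusted p = 0.0252). SPRR3, a precursor of the cornified envelope, was 0.49 higher with separate groups and just missed the threshold (limma, adjusted p = 0.0581).

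Of 14 regulators of epithelial transcription and splicing, 7 had separate lower groups, against 16.8% of all named genes, and 2 had separate higher groups, against 15.5%. By the test 1 fell and 1 rose, against 2.56% lower and 1.49% higher of all named genes. ELF5, a transcription factor of the mammary luminal lineage, had signals of 7.68, 7.42 and 7.26 with GapmeR#4 and of 8.38, 8.28 and 8.36 with control GapmeR, a change of -0.89 ± 0.13 (SE; limma, adjusted p = 0.0231). KLF4, a factor of epidermal barrier formation, had signals of 5.95, 5.77 and 5.75 with GapmeR#4 and of 5.32, 5.24 and 5.29 with control GapmeR, a change of 0.54 ± 0.10 (SE; limma, adjusted p = 0.0451). With 1 array left out, ELF5 passed only without GapmeR#4 replicate 1 (limma, adjusted p = 0.0379), and KLK7 and KLF4 in none of the 6 omissions. Of 12 genes of the mesenchymal transition none passed, and 6 changes were below 0 and 6 above. Separate lower groups were seen for 2 of the 12, against 16.8% of all named genes, and separate higher groups for 1, against 15.5%. ZEB2, a repressor of epithelial genes, was 0.34 higher with separate groups at signals under the array medians (limma, adjusted p = 0.294), and FN1 (fibronectin) had a change of -0.44 with overlapping groups (limma, adjusted p = 0.338).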
